A study of Homo sapiens with 14 samples.

Results

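Long non-coding RNAs were followed in Hep3BTAp73β cells, a line of hepatocellular carcinoma origin that carries a doxycycline-inducible TAp73β, the transcriptionally active β isoform of p73. The 8 RNAs were UCA1, H19, NEAT1, MALAT1, GAS5, PVT1, MEG3 and DANCR, taken by symbol from the annotation of the array's probe sets. Of these, 6 have a probe set that names them alone, among 19775 genes with such a probe set in the series. H19 and NEAT1 are listed only together with a microRNA gene inside their spans, so no level is given for either, and those probe sets are described by their identifiers. The RNAs had been selected on their differences between Dox+ and Dox- arrays, so their values in that contrast are a description and carry no test. The data are 14 Affymetrix Human Genome U133 Plus 2.0 arrays. Dox+ cells had been given doxycycline (1 μg/mL), with 2 arrays at 12 h, 2 at 24 h and 3 at 48 h, and Dox- cells had none and gave 2, 2 and 3 arrays at those times. All cells of both groups carry the TAp73β construct and the Tet repressor construct and were grown from picked resistant colonies of Hep3B. Doxycycline was not given to cells without the construct on these arrays, so an effect of the drug itself and an effect of TAp73β cannot be told apart. The labels call the arrays biological replicates without saying whether those of 1 group came from separate thaws or days, so p-values measure the spread between these arrays.

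Long non-coding RNAs are long transcripts, many of them processed like messenger RNAs, that are not translated into a known protein. UCA1 was found as a transcript of bladder carcinoma and is scarce in most normal adult tissues. NEAT1 is the scaffold of paraspeckles, and MALAT1, its neighbour on the chromosome, lies in nuclear speckles among splicing factors. H19 and MEG3 are imprinted, each expressed from the maternal copy, and both are linked to fetal liver and to liver cancer. GAS5 and DANCR are host genes that carry small nucleolar RNAs in their introns, and PVT1 lies beside MYC.

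Values are log2 levels from RMA, in which a difference of 1 is a doubling of the signal. A gene is given by its probe set with the highest mean, and no level is set against that of another probe set. The median of an array lay between 5.15 and 5.28. TP73, the introduced gene, was read by 232546_at at 7.89 to 8.30 on the 7 Dox+ arrays, against 5.82 to 6.08 on the 7 Dox- arrays. It was higher by 1.89 (SE 0.14), 2.27 (SE 0.14) and 1.96 (SE 0.06) at the 3 times (limma adjusted p = 0.00271, 1.03e-04 and 1.06e-07). Less RNA per cell and fewer cells with the RNA cannot be told apart on arrays of whole cultures. Of 17 hepatocyte markers 16 were measured, and ALB, the brightest, lay between 14.30 and 14.44 on every array. Under the median gene lay 2 of the 16 in each group but Dox- cells at 12 h, where 1 did. At 48 h their summed linear signal spanned 98220 to 103219 in Dox+ cells, below the 109397 to 109690 of Dox- cells. It was lower in Dox+ cells at 12 h too, at 92748 to 94690 against 98090 to 100845. At 24 h it spanned 96362 to 97299 in Dox+ cells, against 99310 to 100585 in Dox- cells. The sum over 7 cholangiocyte markers at 48 h spanned 14301 to 15443 in Dox+ cells, above the 11898 to 13567 of Dox- cells. At 24 h it lay the other way, at 14069 to 14773 in Dox+ cells and 15283 to 15510 in Dox- cells. The groups overlapped at 12 h, and EPCAM, at 12.98 to 13.38 over all arrays, was the brightest of these markers. The sum over 8 stellate and fibroblast markers at 48 h spanned 1314 to 1565 in Dox+ cells, against 811 to 897 in Dox- cells. At 12 h it spanned 1079 to 1101 in Dox+ cells, against 1053 to 1057 in Dox- cells. At 24 h it spanned 1247 to 1305 in Dox+ cells, against 965 to 975 in Dox- cells. In every group 6 of these 8 lay under the median gene. LUM, at 8.55 to 10.11 over all arrays, was the brightest of these 8. The sum over 6 leukocyte markers at 48 h spanned 2105 to 2431 in Dox+ cells, against 3696 to 4131 in Dox- cells, and the groups overlapped at 24 h. LYZ was the brightest of these 6 at 10.85 to 12.14, and PTPRC, which all leukocytes carry, lay at 3.44 to 3.88. The part of these shifts in the results on the long non-coding RNAs was not tested. All 7 endothelial markers lay under the median gene at 48 h. Replicate arrays spread more at 12 h than later. The pooled SD over genes was 0.196 for Dox+ and 0.209 for Dox- arrays at 12 h, and 0.111 for Dox+ and 0.105 for Dox- arrays at 48 h.

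UCA1 stood above its Dox- level in the Dox+ cells of each time point, and the distance widened with time. At 12 h its 1 probe set, 227919_at, read 8.30 and 8.01 in Dox+ cells, against 6.95 and 6.65 in Dox- cells. At 24 h it read 9.41 and 9.62 in Dox+ cells, against 6.85 and 6.96 in Dox- cells. At 48 h it read 10.17, 10.05 and 10.58 in Dox+ cells, against 5.63, 6.002 and 5.56 in Dox- cells. No Dox+ array overlapped a Dox- array of any time, the lowest Dox+ value being 8.01 and the highest Dox- value 6.96. The difference was 1.36 (SE 0.18, 2.57-fold) at 12 h, 2.61 (SE 0.14, 6.09-fold) at 24 h and 4.54 (SE 0.15, 23.2-fold) at 48 h. Among the rises of all genes it ranked 62 at 12 h, 13 at 24 h and 5 at 48 h. Leaving out any 1 array or changing the processing left the difference within 1.21 to 1.51 (12 h), 2.4998 to 2.71 (24 h) and 4.38 to 4.68 (48 h).

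**Figure D1:**
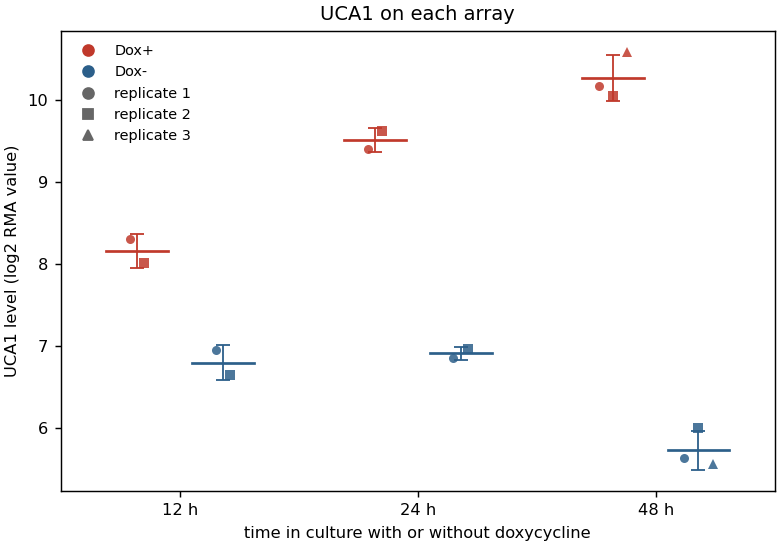
UCA1 level (log2 RMA value, vertical axis) on each of the 14 arrays by time in culture, with Dox+ cells in red to the left and Dox- cells in blue. Lines are means and bars are SD (n = 2 at 12 h and 24 h, 3 at 48 h). The Dox+ means are 8.16, 9.51 and 10.27, and the Dox- means are 6.80, 6.91 and 5.73.

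Of the 6 RNAs, UCA1 alone passed the limma test over all genes, upward at each of the 3 times, and the other 5 did not pass. Of all genes 0.668% passed at 12 h, 0.647% upward and 0.0202% downward. The share was 5.83% at 24 h (3.01% upward, 2.81% downward) and 24.2% at 48 h (11.3% upward, 12.9% downward). The choice of UCA1 used this contrast, so its count carries no weight of its own. By main probe sets UCA1 alone of the 6 also had every Dox+ array above every Dox- array at all 3 times, as did 5.5% of all genes. Probe set 1558290_a_at, listed under MIR1204 and PVT1, lay above at all 3 times too. At single times every Dox+ array lay above every Dox- array in 19.3% (12 h), 26.6% (24 h) and 17.4% (48 h) of genes. Every Dox+ array lay below every Dox- array in 27.6% (12 h), 23.7% (24 h) and 21.9% (48 h) of genes, among them PVT1 at 12 h and DANCR at 24 h. The call of UCA1 at 12 h was lost without either Dox- array of 12 h, and when p-values were adjusted over all probe sets.

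**Figure D2:**
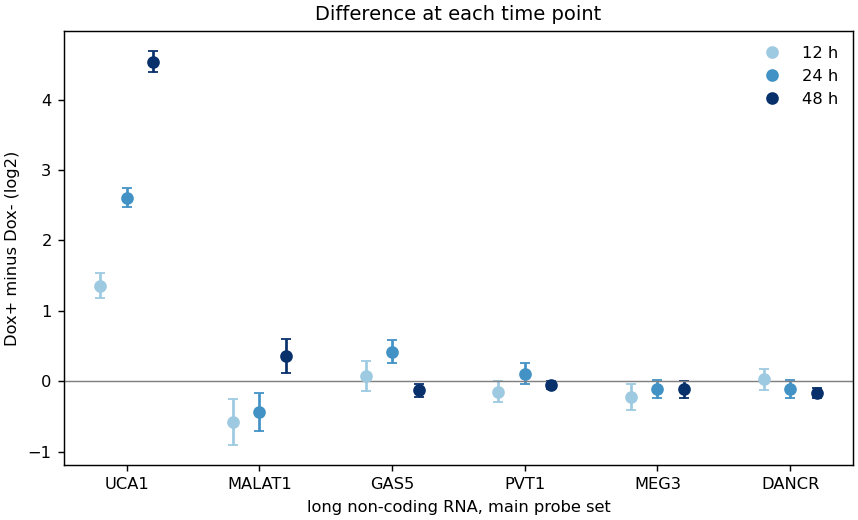
Difference between Dox+ and Dox- cells (log2, vertical axis) at each of the 3 times for the main probe set of the 6 RNAs that have one of their own. Points are differences of group means and bars are standard errors from limma. UCA1 lies at 1.36, 2.61 and 4.54, and the other 5 lie between -0.57 and 0.42.

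UCA1 also changed with time in culture in the Dox- cells alone. The choice of the RNAs did not use this contrast, but these 7 arrays are also the reference of the doxycycline comparison. Low Dox- readings at 48 h enlarge both the difference in that comparison and a fall over time. The p-values of the fall are therefore not independent of the choice. UCA1 was 2.10-fold lower at 48 h than at 12 h (-1.07, SE 0.15, limma adjusted p = 0.00606) and 2.27-fold lower at 48 h than at 24 h (-1.18, SE 0.15, adjusted p = 0.00901). All 3 arrays of 48 h, at 5.56 to 6.002, lay below all 4 earlier arrays, at 6.65 to 6.96. Between 24 h and 12 h the change was 0.11 (SE 0.16, adjusted p = 0.719), and the arrays overlapped. In the order of levels, Dox- cells at 48 h were lowest, then those at 12 h and 24 h, which did not differ beyond their spread, then Dox+ cells in the order of time, each group clear of the one before. The fall at 48 h against 12 h passed under all 16 alternatives (adjusted p from 0.0014 to 0.0345). The fall against 24 h did not pass without Dox- 24 h replicate 2 (adjusted p = 0.147), Dox- 48 h replicate 1 (0.0601) or Dox- 48 h replicate 3 (0.0561). Harvest or array batches were not named, so time in culture and batch cannot be told apart. Over all genes 19.9% passed between 48 h and 12 h, 10.6% downward, and 1.15% between 48 h and 24 h, 0.455% downward. Between 24 h and 12 h 1 gene passed by limma (0.00506%), downward, and 0% upward.

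By their main probe sets none of MALAT1, GAS5, PVT1, MEG3 and DANCR passed in the Dox- time course by limma, and none had an unadjusted p under 0.05 in any of the 3 contrasts. The smallest was 0.0864, for MALAT1 at 48 h against 24 h (0.60, SE 0.32, adjusted p = 0.458). Its change was 0.10 (SE 0.32) at 48 h against 12 h, but the call for MALAT1 there depends on the probe set. It passed upward with the probe set of largest interquartile range (2.02, limma adjusted p = 0.00915) and with _x_at and _s_at probe sets left out (0.73, adjusted p = 0.0294). Likewise MEG3 passed with the largest interquartile range (-0.39, adjusted p = 0.0349), and GAS5 passed at 24 h against 12 h without Dox- 12 h replicate 1 (-0.63, adjusted p = 0.0465). Over their 6 group means UCA1 spanned 4.54 and MALAT1 1.40, while GAS5, PVT1, MEG3 and DANCR spanned 0.42, 0.22, 0.22 and 0.18.

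The genes whose course over the 6 group means lay nearest to that of UCA1, after each was centred on its own mean, were NRP2, PRSS35, TRIM29, CSTA and ST6GALNAC2. The root mean square distance to UCA1 over the 6 groups was 0.32, 0.42, 0.48, 0.50 and 0.51. NRP2, neuropilin 2, is a co-receptor for semaphorins and VEGF-C, and CSTA, cystatin A, is a protease inhibitor of squamous epithelia. NRP2 read 7.90, 7.82 and 8.09 in Dox+ cells, against 3.80, 3.94 and 4.05 in Dox- cells at 48 h. NRP2 differed by 2.17 (SE 0.16) after 12 h, 2.88 (SE 0.16) after 24 h and 4.01 (SE 0.09) after 48 h. CSTA differed by 2.00 (SE 0.15), 3.96 (SE 0.15) and 4.98 (SE 0.08). These genes were picked for a course like that of UCA1 on the same arrays, so their differences are a description with no test.

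On chromosome 19 the nearest genes with a probe set are the olfactory receptors OR10H1 and OR10H3 on 1 side of UCA1 and the cytochromes CYP4F2 and CYP4F11, fatty acid hydroxylases, on the other. CYP4F2 read 6.98, 6.81 and 6.91 in Dox+ cells, against 5.33, 5.40 and 5.43 in Dox- cells at 48 h, with no overlap. It rose by 1.51 (SE 0.07, limma adjusted p = 8.52e-07) at 48 h and did not pass at 24 h (0.61, adjusted p = 0.0855) or 12 h (0.18, adjusted p = 0.691). Its probe set is of the _x_at kind, whose probes can match related sequences, and the CYP4F genes resemble each other. At 48 h CYP4F11 differed by 0.19 (SE 0.07, adjusted p = 0.0837), OR10H1 by 0.09 (SE 0.13) and OR10H3 by 0.02 (SE 0.05), and none of the 3 passed.

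The 12 probe sets of MALAT1 did not run 1 way at 12 h or 24 h, and its replicate arrays lay far apart. Its main probe set, 224567_x_at, read 10.50 and 11.65 in Dox+ cells, against 11.60 and 11.71 in Dox- cells at 12 h. At 24 h it read 10.53 and 10.90 in Dox+ cells, against 11.62 and 10.69 in Dox- cells, and at 48 h 12.06, 11.94 and 12.34 in Dox+ cells, against 11.99, 12.18 and 11.10 in Dox- cells. The groups overlapped at each time. The difference was -0.57 (SE 0.33) at 12 h, -0.44 (SE 0.27) at 24 h and 0.36 (SE 0.24) at 48 h.

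Of the 12 probe sets of MALAT1, 9 were higher in Dox+ cells at 12 h (median difference 0.30), 7 at 24 h (0.13) and 11 at 48 h (0.27). Every Dox+ array lay above every Dox- array in 1 probe set at 12 h, 4 at 24 h and 3 at 48 h, and below in 2 at 24 h. Over all 41091 probe sets with 1 gene, 17.1%, 24% and 14.6% lay wholly above at the 3 times, and 24% wholly below at 24 h. The 2 that lay below at 24 h were 223940_x_at, which read 7.76 and 7.60 in Dox+ cells, against 9.67 and 8.55 in Dox- cells, and 224568_x_at, which read 7.45 and 6.75 in Dox+ cells, against 8.87 and 7.80 in Dox- cells. The same 24 h arrays went the other way in 231735_s_at, which read 6.18 and 5.63 in Dox+ cells, against 5.31 and 4.71 in Dox- cells. Probe sets of MALAT1 thus opposed each other on the same arrays. However, the 4 that lay wholly above at 24 h were dim, at 4.54 to 6.18 then, near the median of an array. All 5 that were lower at 24 h read 6.75 or more, clear of that median. Of those higher at 24 h, 224558_s_at (0.14) and 224559_at (0.32) were clear of it as well.

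The 2 arrays of Dox+ cells at 12 h differed by 1 or more, a doubling, in 6 of the 12 probe sets of MALAT1, against 1.1% of all probe sets. Replicate 2 was the higher in 11 of the 12, and the largest gap was 2.51, in 224568_x_at (6.19 in replicate 1 and 8.70 in replicate 2). Gaps of that size stood in 4 of 12 for Dox- cells at 12 h (0.754% of all probe sets), with replicate 2 the higher in 10, and in 3 of 12 for Dox- cells at 24 h (0.475%), with replicate 1 the higher in 11. For Dox- cells at 48 h they stood in 2 of 12 (0.0511%). In Dox+ cells at 24 h and 48 h no MALAT1 probe set had such a gap. The 12 probe sets read the same gene on the same arrays, so these counts are not separate observations. The cause of the gaps was not tested.

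**Figure D3:**
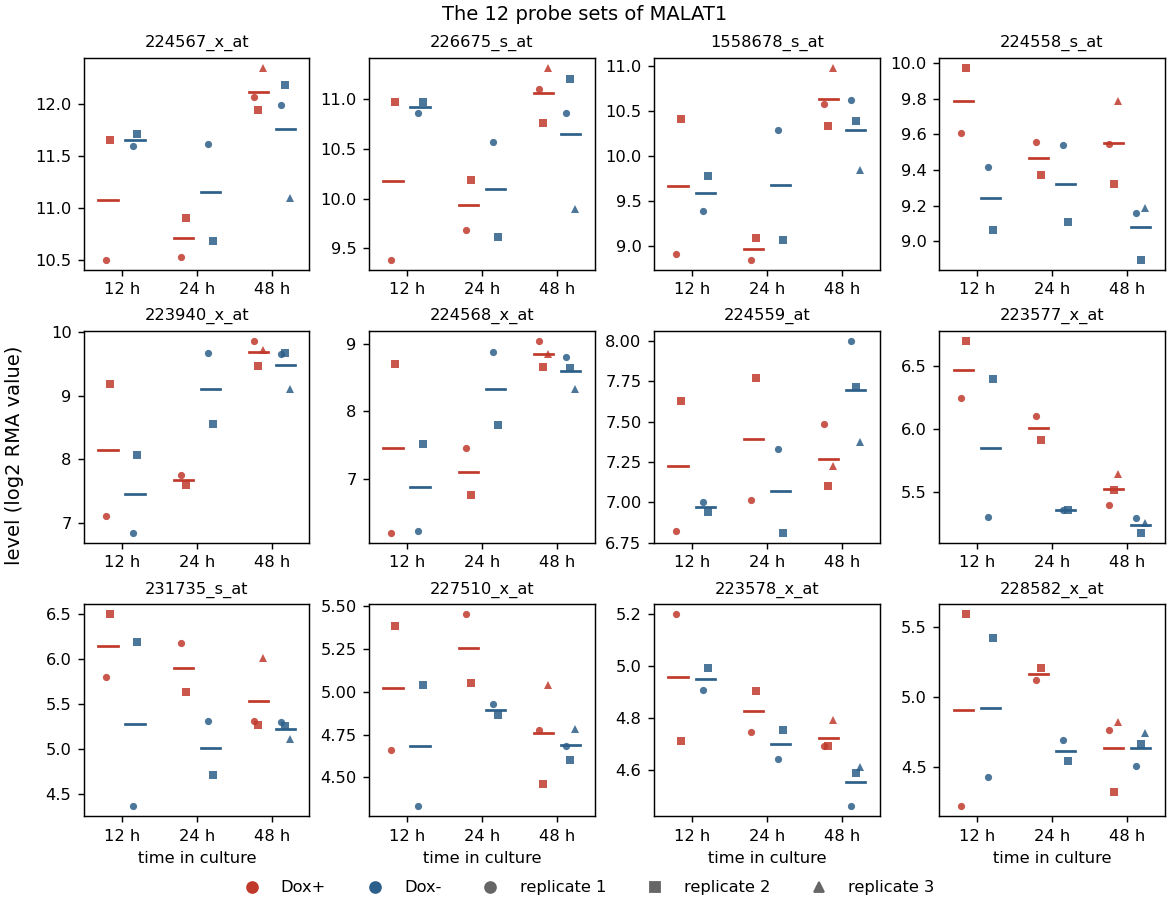
Level (log2 RMA value, vertical axes, each with its own range) of the 12 probe sets of MALAT1 on each array by time in culture, Dox+ in red to the left of Dox- in blue. Lines are group means and symbols are replicates. At 12 h the Dox+ replicates of 224568_x_at lie at 6.19 and 8.70.

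The 5 genes nearest to the course of MALAT1's main probe set were HBP1, EHF, KANSL1L, AHRR and RRAGB, at distances of 0.17 to 0.24. HBP1 is a transcriptional repressor and AHRR represses the aryl hydrocarbon receptor. They too were picked for their course on these arrays, and no test of them is given.

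The 9 probe sets listed under both MIR612 and NEAT1 ran mostly upward in Dox+ cells at 12 h and 48 h, and mostly downward at 24 h. At 12 h 8 of 9 were higher in Dox+ cells and 5 had every Dox+ array above every Dox- array. At 48 h 8 were higher and 6 lay wholly above. Among probe sets that name 1 gene 17.1% lay wholly above at 12 h and 14.6% at 48 h. At 24 h 3 of 9 were higher, none lay wholly above and 2 lay wholly below. Among probe sets that name 1 gene 24% lay wholly above and 24% wholly below at that time. The medians were 0.59, -0.24 and 0.29 at the 3 times. Probe set 225239_at read 10.24 and 11.17 in Dox+ cells, against 9.11 and 8.61 in Dox- cells at 12 h. At 24 h it read 9.29 and 9.36 in Dox+ cells, against 10.23 and 9.34 in Dox- cells, which overlapped. At 48 h it read 10.93, 10.48 and 11.25 in Dox+ cells, against 10.22, 9.68 and 10.39 in Dox- cells. The difference was 1.85, -0.46 and 0.79 at the 3 times. With 234989_at the direction turned: at 12 h it read 10.15 and 10.28 in Dox+ cells, against 7.85 and 8.17 in Dox- cells, and at 24 h 9.07 and 9.09 in Dox+ cells, against 9.66 and 9.27 in Dox- cells. In Dox+ cells 234989_at averaged 10.26 at 48 h, against 10.22 at 12 h. In Dox- cells it averaged 9.55 at 48 h, against 8.01 at 12 h, so between these 2 times the distance moved mainly with the Dox- arrays.

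At 12 h the Dox+ replicate 2 was the higher in 8 of these 9 probe sets, and at 24 h the Dox- replicate 1 in all 9. Both arrays also stood high for MALAT1. At 12 h in Dox- cells the 2 sets of probes differed, with replicate 1 the higher in 6 of these 9 and replicate 2 in 10 of 12 for MALAT1. MIR612 lies within the span of NEAT1 in the RefSeq gene table, and the array does not separate the 2 names. For 220983_s_at, 1 of the 9, the target accession belongs to SPRY4 in that table. It read 3.82 to 4.63 over all arrays, with differences of 0.09, -0.01 and -0.02.

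**Figure D4:**
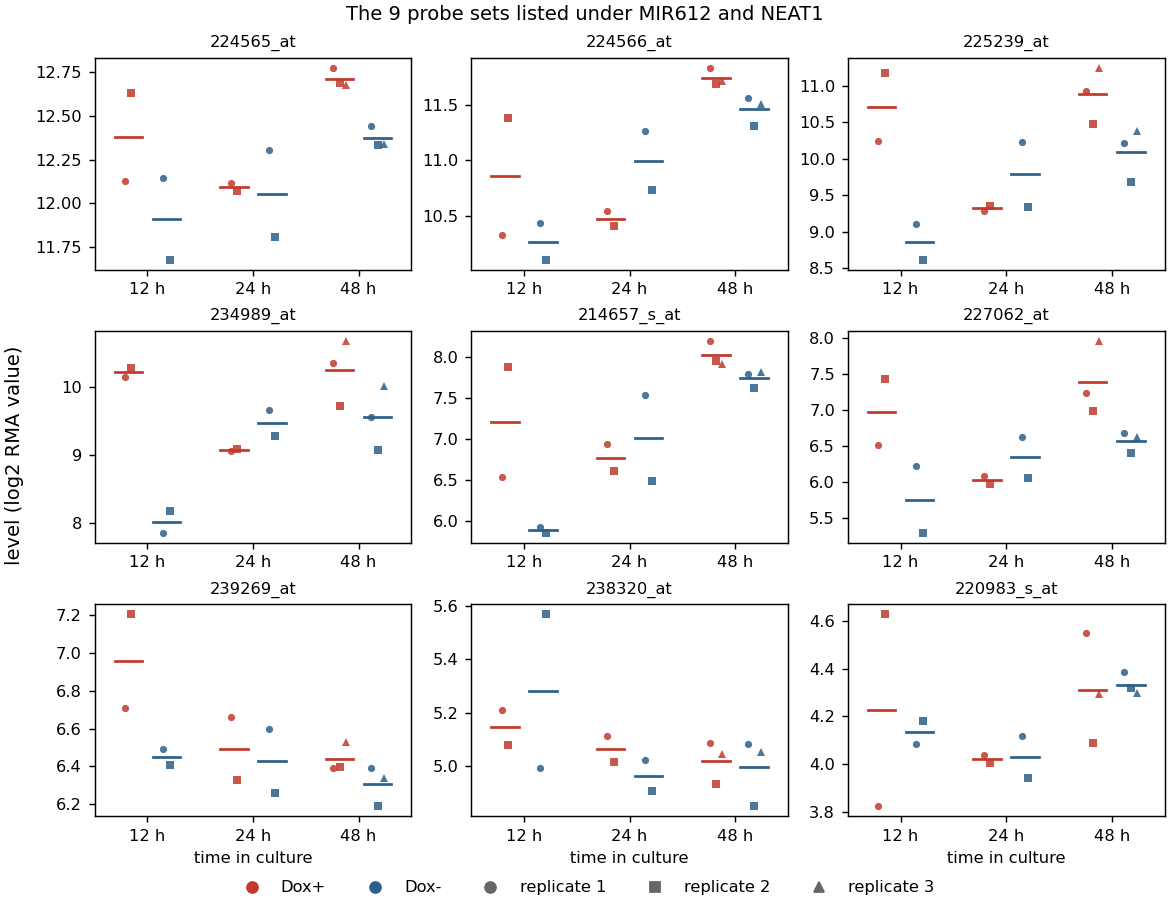
Level (log2 RMA value, vertical axes, each with its own range) of the 9 probe sets listed under MIR612 and NEAT1 on each array by time in culture, Dox+ in red to the left of Dox- in blue. Lines are group means. In 234989_at the Dox+ arrays lie above the Dox- arrays by 2.21 at 12 h and below them by 0.39 at 24 h (-0.39).

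FRMD8, the gene before NEAT1 and MALAT1 on chromosome 11, encodes a protein that holds the iRhom sheddase complex at the cell surface. It read 11.13 and 11.33 in Dox+ cells, against 10.07 and 10.16 in Dox- cells at 12 h. At 24 h it read 11.24 and 11.38 in Dox+ cells, against 10.27 and 10.08 in Dox- cells, and at 48 h 10.98, 11.07 and 10.999 in Dox+ cells, against 9.98, 10.08 and 9.90 in Dox- cells. Its groups did not overlap at any time. It rose by 1.12 (SE 0.15), 1.13 (SE 0.14) and 1.02 (SE 0.07) (limma adjusted p = 0.0259, 0.00235 and 7.22e-06). The other 3 probe sets of FRMD8 were higher by 0.24, 0.27 and 0.17 at 48 h, and 1 of them passed over all probe sets. LTBP3, which lies on the other side and binds latent TGF-β, rose by 0.34 (SE 0.08, adjusted p = 0.0121) at 48 h and was -0.42 at 24 h without passing (adjusted p = 0.132).

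The proteins of the nuclear bodies in which NEAT1 and MALAT1 lie were examined as lists. At 48 h, of 26 measured paraspeckle proteins 1 rose and 5 fell in the limma test, with a median of -0.10, beside 11.3% of all genes rising, 12.9% falling and a median of -0.02. DAZAP1, an RNA-binding protein, fell by 0.46 (SE 0.06, adjusted p = 4.18e-04), FAM98A fell by 0.43 (SE 0.06) and the splicing factor HNRNPM fell by 0.21 (SE 0.06), while RBM4B rose by 0.21 (SE 0.07). HNRNPM had also fallen by 0.63 (SE 0.13, adjusted p = 0.0267) at 24 h, although none of its probe sets passed at 48 h when p-values were adjusted over all probe sets. Of 22 nuclear speckle proteins 5 fell and 17 did not pass, with a median of -0.11. They included the splicing factors SRSF1, which fell by 0.26 (SE 0.06), and SRSF4, which fell by 0.19 (SE 0.05), as well as RNPS1 and SRRM1. At 12 h no gene of either list passed by limma, and 1 paraspeckle gene had an unadjusted p under 0.05.

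The 2 probe sets listed under MIR675 and H19 lay between 5.23 and 6.25 on all arrays, about the median of an array. Probe set 224646_x_at read 5.34 and 5.88 in Dox+ cells, against 6.15 and 6.25 in Dox- cells at 12 h, with no overlap and a difference of -0.59. It differed by 0.16 at 24 h and -0.04 at 48 h, where the groups overlapped. The other, 224997_x_at, differed by -0.18, -0.20 and -0.22, with overlap at 12 h and 48 h. Dox+ arrays thus lay wholly below in 224646_x_at at 12 h and in 224997_x_at at 24 h. Among probe sets that name 1 gene 28.2% lay wholly below at 12 h and 24% at 24 h. Next to H19, TNNT3, a troponin of fast skeletal muscle, read 6.59, 6.64 and 5.95 in Dox+ cells, against 5.56, 5.20 and 5.28 in Dox- cells at 48 h, and rose by 1.04 (SE 0.17, limma adjusted p = 0.00227). MRPL23, a mitochondrial ribosomal protein whose span overlaps H19 in the RefSeq table, fell by 0.28 (SE 0.06, adjusted p = 0.00825).

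MEG3 was dim and changed little. Its 10 probe sets lay between 3.50 and 6.06 on all arrays. The main one, 210794_s_at, read 5.91 and 5.45 in Dox+ cells, against 5.98 and 5.83 in Dox- cells at 12 h. It read 5.69, 5.73 and 5.65 in Dox+ cells, against 5.82, 5.53 and 6.06 in Dox- cells at 48 h. The groups overlapped at all 3 times, and the differences were -0.22 (SE 0.19), -0.11 (SE 0.13) and -0.11 (SE 0.12). At 12 h all 10 probe sets were lower in Dox+ cells, 5 of them wholly below, which 28.2% of all probe sets were, while at 24 h 7 of 10 were higher and at 48 h 4 of 10.

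DLK1, the paternally expressed gene beside MEG3, encodes a Notch-related ligand of fetal liver. It read 9.93, 9.99 and 10.08 in Dox+ cells, against 9.62, 9.55 and 9.69 in Dox- cells at 48 h. It rose by 0.63 (SE 0.15, limma adjusted p = 0.0437) at 24 h and 0.38 (SE 0.07, adjusted p = 0.00279) at 48 h, and was higher by 0.53 at 12 h without passing (adjusted p = 0.275). Its other probe set differed by 0.01 at 48 h. Over all genes 11.3% rose and 12.9% fell at 48 h, with a median of -0.02. Over the 16 measured imprinted genes of the H19 and MEG3 loci and their regulators, 4 rose and 2 fell at 48 h, with a median of -0.11. Among them were IGF2R, the receptor that clears IGF2, which rose by 0.25 (SE 0.07), and CTCF, the insulator protein of the H19 locus, which fell by 0.27 (SE 0.06).

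GAS5 has 1 probe set of its own, 1560402_at, which lay under the array median at 3.80 to 4.60. It read 4.53 and 4.24 in Dox+ cells, against 4.14 and 3.80 in Dox- cells at 24 h, without overlap. The Dox+ arrays lay wholly above at 24 h in 26.6% of all genes. The differences of 1560402_at were 0.08 (SE 0.21), 0.42 (SE 0.16) and -0.12 (SE 0.09). The 4 probe sets that list GAS5 together with small nucleolar RNAs of its introns lay at 8.80 to 11.72. All 4 were higher in Dox+ cells at 12 h, by 0.05 to 0.10, and all 4 were lower at 24 h and at 48 h. At 48 h the level of 228238_at was 8.88, 9.005 and 8.80 in Dox+ cells, against 9.44, 9.41 and 9.49 in Dox- cells, and 227517_s_at was wholly below as well, with differences of -0.55 and -0.41. These 2 of 4 compare with 19% of all probe sets that name 1 gene.

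DANCR had the smallest span of group means of the 6. Its probe set 224870_at read 11.90 and 11.74 in Dox+ cells, against 11.87 and 11.71 in Dox- cells at 12 h. At 24 h it read 11.66 and 11.72 in Dox+ cells, against 11.83 and 11.76 in Dox- cells, without overlap. The Dox+ arrays lay wholly below at 24 h in 23.7% of all genes. At 48 h 224870_at read 11.62, 11.66 and 11.84 in Dox+ cells, against 11.84, 11.83 and 11.93 in Dox- cells. The highest Dox+ array reached into the Dox- range. The differences were 0.03 (SE 0.15), -0.11 (SE 0.13) and -0.16 (SE 0.07). DANCR passed downward at 48 h under 2 alternatives, with trend and robust estimation and without Dox+ 48 h replicate 3. Of the 9 other measured host genes of small nucleolar RNAs 2 fell at 48 h and 7 did not pass. The share of all genes that fell was 12.9%. SNHG19 fell by 0.53 (SE 0.07, limma adjusted p = 8.15e-04). SNHG17 read 10.25, 10.23 and 10.22 in Dox+ cells, against 10.59, 10.58 and 10.67 in Dox- cells, and fell by 0.38 (SE 0.06, adjusted p = 0.00121), with its other probe set falling by 0.39.

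PVT1 has 1 probe set of its own, 216249_at, which stayed between 4.04 and 4.39 on all arrays. Its differences were -0.15 (SE 0.15), 0.11 (SE 0.15) and -0.05 (SE 0.06). Of the 4 probe sets listed under MIR1204 and PVT1, 1558290_a_at had every Dox+ array above every Dox- array at each time. It read 8.09 and 7.95 in Dox+ cells, against 7.72 and 7.37 in Dox- cells at 12 h. At 24 h it read 7.90 and 8.14 in Dox+ cells, against 7.18 and 7.48 in Dox- cells, and at 48 h 7.49, 7.57 and 7.80 in Dox+ cells, against 7.26, 7.16 and 7.41 in Dox- cells. The differences were 0.48, 0.69 and 0.34. Among probe sets that name 1 gene 17.1%, 24% and 14.6% lay wholly above at the 3 times. The other 3 probe sets listed under MIR1204 and PVT1 lay between 4.26 and 5.08.

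MYC, the proto-oncogene beside PVT1, was lower in Dox+ cells. It read 10.94, 10.87 and 10.81 in Dox+ cells, against 11.64, 11.60 and 11.67 in Dox- cells at 48 h. It fell by 0.98 (SE 0.14, limma adjusted p = 0.00506) at 24 h and by 0.76 (SE 0.06, adjusted p = 2.80e-05) at 48 h, and was -0.74 at 12 h without passing (adjusted p = 0.227). At 48 h 11.3% of all genes rose and 12.9% fell, and the median over all genes was -0.02. Of the 11 measured genes of the MYC network 4 fell at 48 h and 7 did not pass, with a median of -0.16. Besides MYC they were MYCN, which fell by 0.70 (SE 0.14), and MXI1 and MXD3, antagonists of MYC that share its partner MAX, which fell by 0.39 (SE 0.07) and 0.26 (SE 0.07).

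Over all 8 loci 32 genes other than the RNAs themselves were neighbours with a probe set. In limma FRMD8 rose at 12 h, beside 0.647% of all genes, and the other 31 did not pass. At 24 h FRMD8 and DLK1 rose and MYC fell, beside 3.01% and 2.81% of all genes. At 48 h 6 rose and 3 fell, beside 11.3% and 12.9% of all genes. Besides the genes given above, these were the rise of USP46 by 0.22 (SE 0.07, adjusted p = 0.0437) beside DANCR and the fall of SERPINC1, antithrombin, by 0.28 (SE 0.07, adjusted p = 0.0122) beside GAS5. SERPINC1 was dim, averaging 4.15 in Dox+ and 4.44 in Dox- cells at 48 h, under the median of an array.

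**Figure D5:**
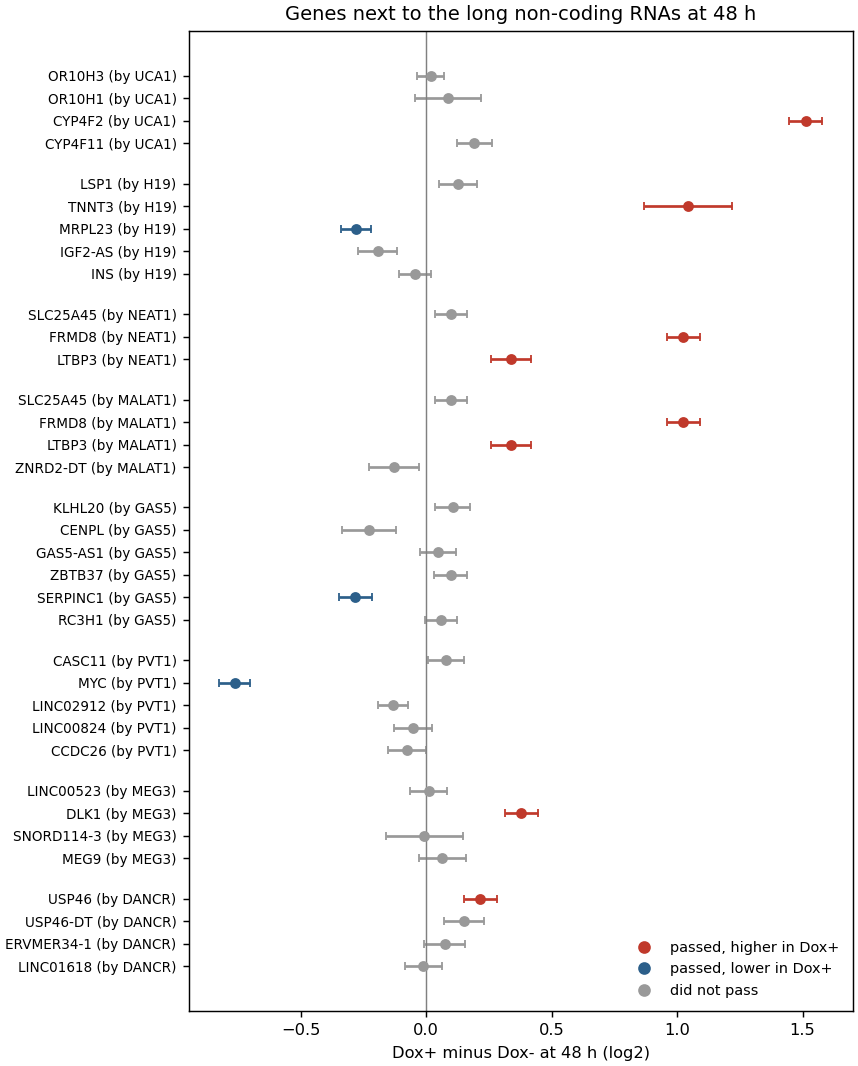
Difference between Dox+ and Dox- cells at 48 h (log2, horizontal axis) for the nearest genes with a probe set around each of the 8 RNAs, with FRMD8, SLC25A45 and LTBP3 drawn for both NEAT1 and MALAT1. Points are differences and bars standard errors from limma. Red genes rose and blue genes fell at an adjusted p under 0.05, with CYP4F2 at 1.51 and MYC at -0.76.

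Of 59 other long non-coding RNAs that were measured, out of 72 listed, 5 rose, 5 fell and 49 did not pass at 48 h, with a median of 0.01. Among all genes 11.3% rose and 12.9% fell at 48 h, with a median of -0.02. At 12 h none of the 59 passed by limma and 9 had an unadjusted p under 0.05. At 24 h 4 of the 59 rose and 1 fell, beside 3.01% and 2.81% of all genes. Of the 10 that changed at 48 h, 3 are named. LINC00261, an endoderm transcript beside FOXA2, read 9.29, 9.21 and 9.01 in Dox+ cells, against 9.74, 9.77 and 9.76 in Dox- cells at 48 h. It fell by 0.77 (SE 0.13, adjusted p = 0.0105) at 24 h and by 0.59 (SE 0.08, adjusted p = 5.68e-04) at 48 h. KCNQ1OT1, an imprinted antisense transcript, rose by 0.68 (SE 0.18, adjusted p = 0.0239) and DLEU2, the host of miR-15a and miR-16-1, fell by 0.68 (SE 0.11, adjusted p = 0.00215) at 48 h, but in each only the main probe set passed, 1 of 5 for KCNQ1OT1 and 1 of 7 for DLEU2. The KCNQ1OT1 groups overlapped at 48 h, and its difference was 1.08 at 12 h and 0.07 at 24 h without passing.

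PURPL, a long non-coding RNA outside that list, was dim and was higher in Dox+ cells at 48 h. It read 4.64, 4.47 and 4.55 in Dox+ cells, against 3.999, 3.93 and 3.77 in Dox- cells at 48 h, without overlap. It rose by 0.65 (SE 0.08, limma adjusted p = 3.01e-04), though it stayed under the median of an array, and was higher by 0.37 at 12 h and 0.21 at 24 h without passing (adjusted p = 0.443 and 0.521).

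The start sites of these genes were searched for the p73 half-site, a consensus of 10 bases that is its own reverse complement and that p63 and p73 bind in pairs. The windows are those of RefSeq on GRCh38.p14, from 250 bases before to 50 after each start. Of the 8 RNAs 5 had a window (H19, MALAT1, GAS5, MEG3 and DANCR, 8 windows in all), and none of the 8 windows held a half-site. UCA1, NEAT1 and PVT1 had no window, so UCA1, the RNA that passed, was not searched. The windows of MEG3 overlap almost wholly. Over all 35116 windows 6.63% held at least 1, and 0.0285% held 2 with at most 13 bases between them. PURPL is shown because it rose and because its window (chr5:27472042-27472341, plus strand) holds 2 half-sites with no base between them, in capitals, from 127 to 108 bases before the start. MALAT1 (chr11:65497488-65497787, plus strand) and DANCR (chr4:52712144-52712443, plus strand) are shown for comparison, as RNAs of the group that did not pass, and have no capitals.
PURPL: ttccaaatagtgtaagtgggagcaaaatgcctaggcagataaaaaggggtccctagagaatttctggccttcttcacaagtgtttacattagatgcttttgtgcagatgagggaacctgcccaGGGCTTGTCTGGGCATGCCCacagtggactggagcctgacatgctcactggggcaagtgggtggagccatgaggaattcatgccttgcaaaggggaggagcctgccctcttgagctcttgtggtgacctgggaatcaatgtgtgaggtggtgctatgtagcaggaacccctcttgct
MALAT1: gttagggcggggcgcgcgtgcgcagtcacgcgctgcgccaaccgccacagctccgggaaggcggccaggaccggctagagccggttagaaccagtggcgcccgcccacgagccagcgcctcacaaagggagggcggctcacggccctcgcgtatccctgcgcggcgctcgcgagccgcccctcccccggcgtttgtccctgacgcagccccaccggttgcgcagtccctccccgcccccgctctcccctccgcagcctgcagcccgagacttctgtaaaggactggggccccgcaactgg
DANCR: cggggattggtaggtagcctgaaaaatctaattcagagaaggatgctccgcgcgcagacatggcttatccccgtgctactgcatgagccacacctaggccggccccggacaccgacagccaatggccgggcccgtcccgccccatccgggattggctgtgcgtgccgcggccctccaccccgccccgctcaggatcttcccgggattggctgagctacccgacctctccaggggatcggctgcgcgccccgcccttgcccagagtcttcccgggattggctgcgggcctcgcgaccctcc
No half-site stood in the windows of the called non-coding RNAs LINC00261, DLEU2, SNHG17 and SNHG19, of the neighbours CYP4F2, FRMD8, LTBP3 and USP46, or of NRP2 and PRSS35. TRIM29, CSTA and ST6GALNAC2 had no window and were not searched. PURPL was chosen after its values and its window were seen. A match is a stretch of letters and not a measured binding site, and a window without one says only that these letters are not within it.

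Of 24 genes that the literature pairs with H19 or UCA1, all 24 were measured, 1 rose and 5 fell at 48 h, with a median of -0.06. The shares of all genes were 11.3% rising and 12.9% falling, with a median of -0.02. HMGA2, a chromatin protein under control of let-7, read 10.89, 10.92 and 10.71 in Dox+ cells, against 11.47, 11.50 and 11.54 in Dox- cells and fell by 0.66 (SE 0.07, limma adjusted p = 1.54e-04), while its other 8 probe sets did not pass. LIN28B, which blocks let-7 maturation, fell by 0.50 (SE 0.06, adjusted p = 2.35e-04), and HMGA1 fell by 0.37 (SE 0.06). ETS2, a transcription factor, rose by 0.42 (SE 0.06, adjusted p = 8.43e-04).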

How the data were processed

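The authors extracted total RNA and hybridised it to Affymetrix U133 Plus 2.0 arrays. The deposited values are log2 values made by RMA, with BRB-ArrayTools named in the methods and R 3.5.1 in the processing notes. Outlier arrays had been excluded per the methods, and all 14 arrays used here were kept. The methods name RPMI as the medium and the labels DMEM. Of 54613 probe sets besides 62 hybridisation controls, 41091 named 1 gene in the platform annotation (41037 matched to RefSeq by gene identifier), 1801 several and 11721 none. Each gene is its probe set with the highest mean.

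Dox+ was compared with Dox- within each time point, and the 7 Dox- arrays over time in 1 fit, by limma 3.58.1 (lmFit, eBayes, two-sided) in R 4.3.3, with p-values adjusted by Benjamini-Hochberg over 19775 genes at a threshold of 0.05. Python 3.11.15, pandas 2.3.3, numpy 2.4.6 and matplotlib 3.10.9 served for the other computations. The fits were tested on simulated data. The number of arrays limits the precision.

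The RNAs and all lists were chosen with earlier results of these data known, and 1 list and some genes are not reported here. Named genes were all of the 8 RNAs, the 2 nearest genes with a probe set on each side and those overlapping, up to 4 genes of each list with the largest difference past the test at 48 h, the 5 genes of nearest course for RNAs whose group means span over 1, and TP73.

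Same-numbered arrays did not meet the criterion for pairs. Alternatives were 1 fit of all arrays, quantile normalization, the probe set of largest interquartile range, adjustment over every probe set, _x_at and _s_at probe sets left out, dim genes left out, trend and robust estimation, a replicate block and each array left out, and 2 added after seeing the data.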

Additional observations from a re-analysis of the deposited data

Results flagged for a closer look

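Groups of 2 or 3 arrays are too small for a test of single outlying arrays, so none was made. Of 45 probe sets of the 8 RNAs, 3 had every Dox+ array on 1 side of every Dox- array at 1 time and on the other side at another. They were 234989_at, listed under MIR612 and NEAT1 (2.21 at 12 h and -0.39 at 24 h), 224566_at, listed under the same names (-0.53 at 24 h and 0.29 at 48 h), and 229557_at of MEG3 (-0.28 at 12 h and 0.10 at 48 h). Over all 42892 probe sets that name 1 or several genes 13.7% turned sides in this way. The difference between the time points was not tested.

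The probe sets that list 1 of the 8 RNAs together with other genes entered no test. In 4 of them every Dox+ array lay above every Dox- array by 1 or more on average, all of them listed under MIR612 and NEAT1 and all at 12 h: 234989_at by 2.21, 225239_at by 1.85, 214657_s_at by 1.32 and 227062_at by 1.22. At 12 h 13 of all 1801 probe sets with several genes did so (0.722%). In 214657_s_at the 2 Dox+ arrays themselves read 6.54 and 7.88.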

How the results depend on the processing

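UCA1 kept its direction at each time and in its Dox- decline under every alternative run. Of the differences of the 6 RNAs between Dox+ and Dox- cells, 211 moved by less than 1 SD and 8 by more. The 211 are no measure of stability, because most of them could not have moved further. In groups this small, leaving out 1 array cannot shift a difference beyond the SD between replicate arrays. Other alternatives, such as the fit of all arrays together, return the same differences. The 8 larger moves lie mostly with MALAT1. With the probe set of largest interquartile range it was 0.70 at 12 h and -1.43 at 24 h. With _x_at and _s_at probe sets left out it was 0.26, 0.32 and -0.43, in the order of time. In the Dox- course MALAT1 (under both choices), MEG3 (under the first) and GAS5 (without Dox- 12 h replicate 1) then passed at the values given above.

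Over all genes 132 passed at 12 h, 1152 at 24 h and 4778 at 48 h, and 40 of all genes in the lists at 48 h. With all 14 arrays in 1 fit the counts were 1683, 2308 and 2798, and 18 listed genes. In that fit 313 genes passed between 24 h and 12 h and 584 between 48 h and 24 h in Dox- cells, against 1 and 227, with 3927 between 48 h and 12 h. Quantile normalization gave 2601 for the last. The largest interquartile range gave 87 genes at 12 h and 558 in Dox- cells at 24 h against 12 h, and 2 of the RNAs at 24 h, MALAT1 (downward) joining UCA1. With every probe set tested 50 genes passed at 12 h, 0 of the RNAs then, and in Dox- cells 100 at 24 h against 12 h and 115 at 48 h against 24 h. Without _x_at and _s_at probe sets 4 genes passed at 24 h against 12 h. Trend and robust estimation gave 2220 genes at 24 h, 3 and 389 in the Dox- contrasts of 24 h, and 2 RNAs at 48 h, DANCR (downward) joining UCA1. Array weights, added after seeing the data, gave 0 genes at 24 h against 12 h and 1806 at 48 h against 12 h in Dox- cells.

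Same-numbered arrays deviated together with correlations of 0.255 at 12 h, -0.11 at 24 h and 0.0892 to 0.109 at 48 h, so the numbers were not taken as pairs, though each 48 h array correlated best with its own number. The replicate block gave 469 genes at 12 h, and in Dox- cells 0, 1188 and 66 at 24 h against 12 h, 48 h against 12 h and 48 h against 24 h. It changed no call of the RNAs, and 34 listed genes passed at 48 h. The crossed block at 24 h, added after seeing the data, gave 1593 genes.

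Leaving out 1 array gave 4 to 227 genes at 12 h, 647 to 863 at 24 h and 26 to 33 listed genes at 48 h. The Dox- counts ranged from 0 to 1600 (24 h against 12 h), from 469 to 4863 (48 h against 12 h) and from 0 to 910 (48 h against 24 h). The lowest at 12 h came without Dox- 12 h replicate 1, and 20 passed without replicate 2. Of the RNAs 0 to 2 passed at 12 h and 1 to 2 at 48 h. None passed at 12 h without either Dox- 12 h array, MALAT1 (downward) was added without Dox+ 12 h replicate 2 and DANCR (downward) without Dox+ 48 h replicate 3. UCA1 at 48 h against 24 h in Dox- cells was -1.13, -1.13 and -1.09 in the 3 cases in which it did not pass. Where a group was left with 1 array, that array is assumed to vary like the others. Dim probe sets limit what can be said of GAS5, PVT1 and MEG3, and of the MALAT1 probe sets near the array median.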
